A study of Mus musculus with 24 samples.

Results

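The comparison described here is the difference between 2 responses: the change in gene counts 1 h after thapsigargin in MIN6 cells that had received an EIF2A-GFP plasmid, minus the same change in MIN6 cells that had received a GFP plasmid. MIN6 is a mouse insulinoma line that makes and secretes insulin, and thapsigargin blocks SERCA, the calcium pump that fills the endoplasmic reticulum (ER). Of the 24 libraries of the series, 12 were used, as 3 libraries (replicates 2 to 4 of the titles) in each of 4 groups: EIF2A-GFP with 1 µM thapsigargin for 1 h, EIF2A-GFP with DMSO vehicle (0 h), GFP with 1 µM thapsigargin for 1 h, and GFP with vehicle (0 h). They are written below as EIF2A at 1 h, EIF2A at 0 h, GFP at 1 h and GFP at 0 h. Polyadenylated RNA was sequenced, the labels name no promoter for the plasmids, and all cells, controls included, carried GFP in one form or the other. Of 13516 genes tested, 348 had a response that differed between the constructs at an adjusted p under 0.05 (edgeR's quasi-likelihood test with Benjamini-Hochberg adjustment), which is 2.57%.

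As background, loss of ER calcium leads to misfolded protein in the ER and activates stress sensors, among them PERK and IRE1. PERK phosphorylates eIF2α, which lowers general translation while the transcription factor ATF4 is made, and ATF4 with its partners raises genes of amino acid supply and stress such as Chac1 and Trib3. IRE1 cuts a short intron out of Xbp1 mRNA and also cleaves other mRNAs, a process called regulated IRE1-dependent decay, of which Bloc1s1 is the best known substrate. Calcium that leaves the ER also triggers immediate early genes such as Fos, Egr1 and Nr4a1. EIF2A, unlike the α subunit of eIF2, is a separate initiation factor, a single protein able to place the initiator tRNA on the ribosome.

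Eif2a mRNA, which also checks the construct labels, was highest in EIF2A at 1 h with 197, 185 and 174 CPM (counts per mega-count of the library, after TMM scaling), followed by EIF2A at 0 h with 136, 137 and 129 CPM, GFP at 1 h with 88.2, 86.6 and 90.9 CPM and GFP at 0 h with 77.2, 76.2 and 77.0 CPM. No library of an EIF2A group overlapped with any GFP library, and counts do not separate plasmid from endogenous transcripts. The Eif2a response itself, +0.47 in EIF2A and +0.21 in GFP on the log2 scale, did not pass the test of the difference (0.26 ± 0.07, SE; adjusted p = 0.0577). Replicate 1, which was left out, goes against its construct labels in this gene, at 97.0 and 80.3 CPM in the libraries labelled EIF2A at 1 h and 0 h, against 361 and 269 CPM in those labelled GFP at 1 h and 0 h. Gcg, Ins1 and Nr4a1 also lay there on the side opposite to the other replicates: Gcg had 922 and 904 CPM in the libraries labelled EIF2A at 1 h and 0 h, against 247 and 272 CPM in those labelled GFP at 1 h and 0 h. At 1 h Ins1 had 6208 CPM in the library labelled EIF2A against 13540 CPM in that labelled GFP, and Nr4a1 603 CPM against 180.0 CPM. Whether the construct labels of replicate 1 were exchanged cannot be told from these values. Depth was 14.1 to 16.6 M (mega) counts in EIF2A at 1 h and 10.5 to 14.8 M in EIF2A at 0 h, against 18.1 to 19.6 M in GFP at 1 h and 18.4 to 22.2 M in GFP at 0 h. Reads assigned to no gene also differed, at 14.8% to 15.4% in EIF2A at 1 h and 17.2% to 17.9% in EIF2A at 0 h, against 10.9% to 11.4% in GFP at 1 h and 12.4% to 13.0% in GFP at 0 h, and the part of depth and of this share in the results was not tested.

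Beta cell genes were present in all groups, with Ins2 between 30840 and 65260 CPM in every library. Among markers of other cells, the alpha cell gene Gcg lay at 204 to 214 CPM in EIF2A at 1 h and 218 to 232 CPM in EIF2A at 0 h, against 619 to 632 CPM in GFP at 1 h and 676 to 718 CPM in GFP at 0 h. The summed level of 7 alpha cell markers (4 tested), without TMM scaling, was 1210 to 1240 CPM in EIF2A at 1 h and 1300 to 1310 CPM in EIF2A at 0 h. It was 1590 to 1660 CPM in GFP at 1 h and 1810 to 1840 CPM in GFP at 0 h, and no member was called in the interaction. In bulk RNA, fewer cells of a type and less RNA per cell cannot be told apart.

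Thapsigargin changed a large share of the transcriptome in each construct. In EIF2A, 3311 genes rose and 3025 fell at 1 h (24.5% and 22.4% of genes tested, 46.9% in all), and in GFP 2966 rose and 3379 fell (21.9% and 25%, 46.9% in all). Across 10842 genes that averaged 5 CPM or more, the response in EIF2A followed that in GFP with a slope of 0.974 and a Pearson r of 0.857, a description across genes from constructs that share no library. Among 69 genes that changed by 2-fold or more in GFP, the slope was 0.86. The interaction was positive, meaning a response further upward or less downward in EIF2A, for 288 genes (2.13% of those tested), and negative for 60 genes (0.444%). At an unadjusted p under 0.05 it differed for 2180 of 13516 genes, both directions together. Counts within gene lists below are to be read beside these shares. The split of the called genes, 82.8% positive, depends on scaling. The median over all genes was 0.02 under TMM scaling, 0.00 under DESeq2 size factors and -0.05 under library totals alone. In the same order the positive and negative counts were 288 and 60, 187 and 71, and 132 and 127. All 60 negative genes and 131 of the 288 positive genes were called under each of these 3 scalings. Both alternatives moved the interactions downward, which favours negative calls, so keeping all 60 is no test of them. The split also moved with single libraries: it was 164 and 168 (49.4% positive) without EIF2A at 1 h replicate 4, 171 and 138 (55.3%) without EIF2A at 1 h replicate 2, 172 and 128 (57.3%) without EIF2A at 0 h replicate 4 and 79 and 57 (58.1%) without EIF2A at 0 h replicate 3.

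**Figure D1:**
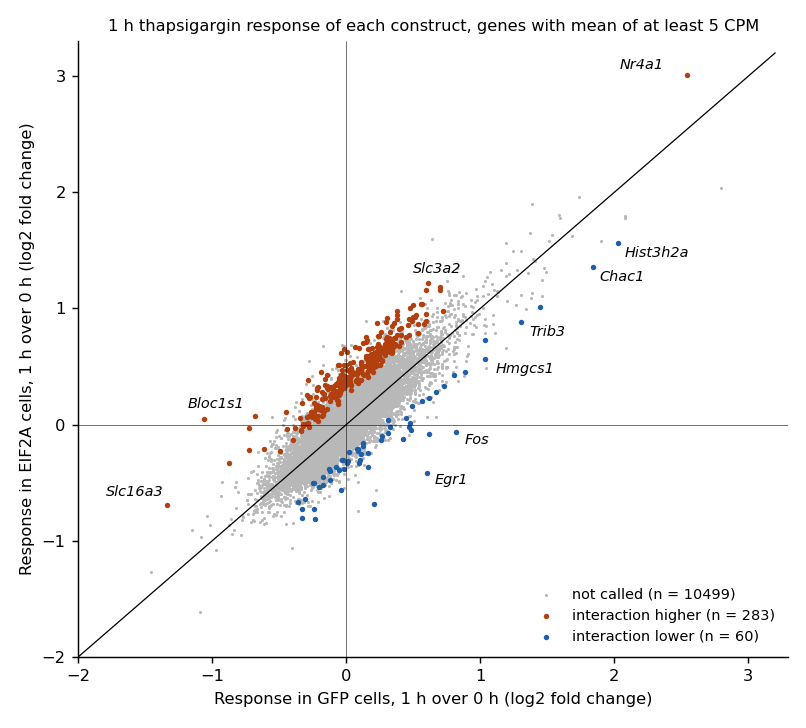
Response at 1 h in EIF2A cells (vertical axis) against that in GFP cells (horizontal axis), both as log2 fold change of 1 h over 0 h, for genes that averaged 5 CPM or more. Each point is 1 gene, the diagonal marks equal responses, and Bloc1s1, Fos and Egr1 lie farther from it than most called genes.

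Most differences were small. The median positive interaction was 0.38 and the median negative one -0.38 on the log2 scale, and 5 positive genes and 1 negative gene reached 2-fold. Among the positive genes the median response was +0.47 in EIF2A and +0.08 in GFP, and among the negative genes -0.23 in EIF2A and +0.13 in GFP. A weaker response of the same sign in EIF2A was found for 29 of the 348 genes, or 8.33%: by the signs of the fitted responses, 169 positive genes responded in the same direction more strongly in EIF2A, 106 in opposite directions and 13 more weakly. Of the 60 negative genes, 20 had the larger negative response in EIF2A, 24 responded in opposite directions and 16 had the smaller positive response in EIF2A. These classes rest on the signs of both fitted responses, which need not each pass the test. The 16 with a weaker induction include Chac1, Trib3, Herpud1, Mthfd2, Iars and Hmgcs1.

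Levels and responses were not the same thing. Before thapsigargin, 68.8% of all genes tested already differed in level between EIF2A and GFP (32.0% higher and 36.8% lower in EIF2A), and at 1 h 73.6% did (36.1% higher and 37.5% lower in EIF2A). The plasmid and the population of cells that carried it cannot be told apart in these libraries. The part of the plasmid itself in the level and response differences was therefore not tested. Of the 288 positive genes, 176 differed in level at both times, 81 at 1 h only and 31 at 0 h only. Of the 60 negative genes, 33 differed at both times, 16 at 1 h only and 11 at 0 h only. The distance between the constructs was larger at 1 h than at 0 h for 194 positive and 30 negative genes, changed sign for 68 and 21, and shrank for 26 and 9. On the CPM scale, the point estimate of the difference of the increments had the sign of the log2 interaction in all but 3 positive and 2 negative genes. These 5 were Nr4a1, Btg2, Pcsk1, Trib3 and Hist3h2a, and the count takes no account of the errors of the increments. The same sign with a difference over 2 SE was found for 279 of 288 positive and 53 of 60 negative genes. Over all genes tested the signs differed for 1982 of 13516 (14.7%). The genes were called on the log2 interaction of these same libraries, so the agreement of signs is no test of it.

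**Figure D2:**
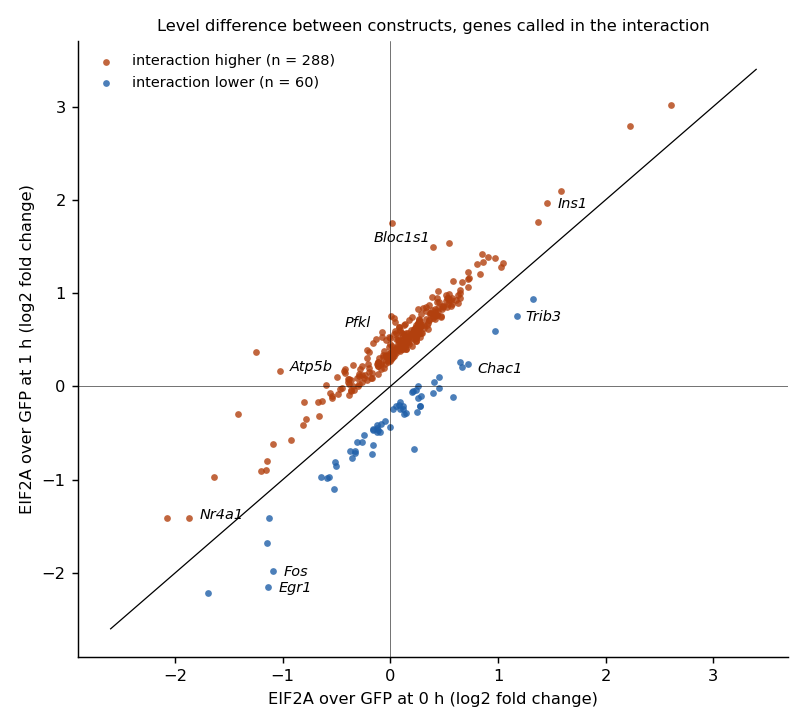
Level of EIF2A over GFP at 1 h (vertical axis) against the same at 0 h (horizontal axis), in log2 fold change, for the 348 genes whose response differed. Points above the diagonal have a positive interaction and points below it a negative one, and points in the upper left or lower right are the genes whose level difference changed sign.

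Bloc1s1, a subunit of the BLOC-1 and BORC complexes of lysosome-related organelles, had the highest interaction of the called genes that averaged 5 CPM or more. Its level was 35.3, 34.6 and 44.2 CPM in EIF2A at 1 h and 35.5, 37.8 and 37.7 CPM in EIF2A at 0 h. GFP had 13.9, 12.4 and 14.1 CPM at 1 h and 26.5, 30.2 and 27.8 CPM at 0 h. All EIF2A libraries lay above all GFP libraries, the EIF2A libraries of both times overlapped, and GFP at 1 h stood apart below GFP at 0 h. It fell in GFP (-1.06 ± 0.09, adjusted p = 3.49e-08), its change in EIF2A was 0.05 ± 0.09 (adjusted p = 0.692), and the interaction was 1.11 ± 0.13 (adjusted p = 0.000181). At 1 h its level was higher in EIF2A by 1.499 ± 0.09, and at 0 h by 0.39 ± 0.09. The call held in all 12 fits that left out 1 library. Bloc1s1 lies on chromosome 10 at 128917882 to 128924035, minus strand (GRCm38), where it overlaps Rdh5 on the same strand, a gene with a mean of 1.25 CPM here.

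The stem-loop that IRE1 cuts in its classical substrate Xbp1 carries a CNGCAGN loop, with N any base, and such a loop closed by at least 4 base pairs (G-T counted as a pair) was searched in the sense strand of all GENCODE M21 transcripts. The following windows of 30 bases hold the loop in the coding part of exon 4 of Bloc1s1-201 (chr10:128920000-128920029, minus strand, GRCm38), and both loops in exon 4 of Xbp1-201 (chr11:5524264-5524293 and chr11:5524290-5524319, plus strand), with the 7 loop bases in capitals.
Bloc1s1: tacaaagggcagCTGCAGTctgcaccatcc
Xbp1, first loop: ggtctgctgagtCCGCAGCactcagactat
Xbp1, second loop: ctatgtgcacctCTGCAGCaggtgcaggcc
The Bloc1s1 loop is closed by 4 pairs and those of Xbp1 by 6 and 7. Such a loop was in 16.2% of the positive genes, 20.7% of the negative genes and 18.2% of all genes tested. Among the positive genes that fell in GFP, 12 of 58 with a transcript held it, which is 20.7%. Xbp1 itself had 240, 243 and 232 CPM in EIF2A at 1 h and 178, 174 and 199 CPM in EIF2A at 0 h. GFP had 308, 324 and 331 CPM at 1 h and 243, 243 and 248 CPM at 0 h. It was lower in EIF2A at both times with no overlap at either, and its responses differed by -0.02 ± 0.07 (adjusted p = 0.939). These counts do not separate spliced from unspliced Xbp1.

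Of 8 genes described as IRE1 decay substrates, a list added after values were seen, 5 were tested and 2 were called, both positive: Bloc1s1 and Ergic3, a cargo receptor between ER and Golgi. Ergic3 averaged 214 CPM in EIF2A at 1 h and 146 CPM in EIF2A at 0 h, against 152 CPM in GFP at 1 h and 136 CPM in GFP at 0 h (interaction 0.39 ± 0.10, adjusted p = 0.0373), and it was not called under each of the 3 scalings. The pattern of Bloc1s1, overlapping times in EIF2A and a fall in GFP, recurred in Blvra, the biliverdin reductase that makes bilirubin, and Pcyox1l. It is not particular to genes of this kind. Of the 288 positive genes, 36 (12.5%) had a response called in GFP only, with Ins2, Rps25 and Rpl36a among them. Blvra had 20.7, 21.9 and 17.6 CPM in EIF2A at 1 h and 19.98, 17.0 and 20.1 CPM in EIF2A at 0 h. GFP had 11.8, 11.2 and 12.4 CPM at 1 h and 19.5, 19.4 and 17.99 CPM at 0 h. The interaction of Blvra was 0.75 ± 0.13 (adjusted p = 0.00372) and that of Pcyox1l 0.70 ± 0.12 (adjusted p = 0.00534), both called in all 12 leave-outs. The loop search found 1 match in Blvra, closed by 10 pairs, and 0 in Pcyox1l and Ergic3. For Blvra and Pcyox1l the constructs did not differ at 0 h by the test (adjusted p = 0.943 for Blvra and 0.714 for Pcyox1l).

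Immediate early genes, which calcium and kinase signals switch on without new protein synthesis, moved in both directions. Of 50 tested, 4 had a negative interaction (Egr1, Fos, Arc and Srf) and 3 a positive one (Nr4a1, Btg2 and Trib1), with a median of -0.04 against 0.02 over all genes tested. Egr1, a zinc finger transcription factor, had 35.3, 35.6 and 31.1 CPM in EIF2A at 1 h and 48.7, 49.7 and 36.7 CPM in EIF2A at 0 h. GFP had 149, 147 and 157 CPM at 1 h and 99.4, 100.0 and 99.6 CPM at 0 h. All EIF2A libraries were below all GFP libraries, and the times did not overlap in either construct. It fell in EIF2A (-0.42 ± 0.09, adjusted p = 0.00063) and rose in GFP (0.60 ± 0.07, adjusted p = 1.39e-06), and its interaction of -1.02 ± 0.11 (adjusted p = 0.000181) was the lowest of all called genes. Its lower level was thus present before thapsigargin, by -1.14 ± 0.08, and was -2.15 ± 0.08 at 1 h.

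Fos, a subunit of the AP-1 transcription factor, had 16.5, 14.01 and 14.9 CPM in EIF2A at 1 h and 19.4, 14.3 and 13.0 CPM in EIF2A at 0 h. GFP had 61.6, 60.8 and 56.9 CPM at 1 h and 33.6, 34.2 and 33.6 CPM at 0 h. The EIF2A libraries of the 2 times overlapped and the GFP libraries did not. Fos rose in GFP (0.82 ± 0.08, adjusted p = 1.3e-07), its change in EIF2A was -0.07 ± 0.11 (adjusted p = 0.673), and the interaction was -0.89 ± 0.14 (adjusted p = 0.00284). Arc, a synaptic immediate early gene, overlapped between the constructs before thapsigargin, with 12.4, 13.4 and 12.3 CPM in EIF2A at 0 h and 11.9, 12.4 and 13.9 CPM in GFP at 0 h. At 1 h it had 24.5, 24.8 and 27.3 CPM in EIF2A against 35.2, 32.9 and 35.8 CPM in GFP, so its interaction of -0.43 ± 0.11 (adjusted p = 0.0476) came without a lower starting level. Srf, the serum response factor that drives many of these genes, had 62.3 ± 4.38 CPM in EIF2A at 1 h and 65.7 ± 4.60 CPM in EIF2A at 0 h, against 67.8 ± 1.64 CPM in GFP at 1 h and 54.8 ± 2.82 CPM in GFP at 0 h (SD, n = 3 each), an interaction of -0.38 ± 0.09 (adjusted p = 0.0267). Arc was called in 3 and Srf in 4 of 12 leave-outs, and both, like Trib1, were named after their values were seen.

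Fosb and Npas4, of the same list, were not called. Fosb had 14.1, 14.01 and 11.7 CPM in EIF2A at 1 h and 5.53, 2.84 and 2.48 CPM in EIF2A at 0 h. GFP had 26.7, 26.6 and 25.9 CPM at 1 h and 5.84, 6.65 and 6.31 CPM at 0 h. It rose in both constructs, and its responses differed by -0.28 ± 0.23 (adjusted p = 0.600). Npas4, an activity-dependent transcription factor, had an interaction of 0.26 ± 0.14 (adjusted p = 0.363) at levels that were lower in EIF2A at both times.

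Nr4a1, an orphan nuclear receptor, had the strongest response among named genes and shows how a level and a response can part. It had 176, 176 and 192 CPM in EIF2A at 1 h and 25.6, 20.3 and 21.0 CPM in EIF2A at 0 h. GFP had 487, 491 and 464 CPM at 1 h and 81.0, 83.9 and 82.7 CPM at 0 h. EIF2A was below GFP at both times without overlap, yet the log2 response was larger in EIF2A, 3.01 ± 0.07 against 2.54 ± 0.06 in GFP. The interaction was 0.47 ± 0.09 (adjusted p = 0.0103), called in 10 of 12 leave-outs. In CPM the increment was smaller in EIF2A, 159 ± 5.69 against 398 ± 8.43 in GFP (SE). Pcsk1, the prohormone convertase that begins the cleavage of proinsulin, had a log2 interaction of 0.26 ± 0.06 (adjusted p = 0.0335) with CPM increments of 165 ± 6.10 in EIF2A against 246 ± 7.996 in GFP. Btg2, an antiproliferative gene, had a log2 interaction of 0.30 ± 0.07 (adjusted p = 0.024). Its CPM increments of 33.96 ± 2.22 in EIF2A and 37.4 ± 1.90 in GFP differed by -3.39 ± 2.92 (SE), little more than the error.

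Dusp1, a nuclear phosphatase that switches off MAP kinases, had 53.6, 49.3 and 47.6 CPM in EIF2A at 1 h and 30.1, 31.2 and 30.2 CPM in EIF2A at 0 h. GFP had 53.8, 54.6 and 56.2 CPM at 1 h and 44.3, 45.1 and 43.9 CPM at 0 h. From a lower start without overlap it remained below GFP at 1 h by less (-0.13 ± 0.05, adjusted p = 0.0376), and its interaction was 0.41 ± 0.08 (adjusted p = 0.00892), called in all 12 leave-outs. Dusp10 (0.28 ± 0.07, adjusted p = 0.0356) and the pseudokinase Trib1 (0.31 ± 0.07, adjusted p = 0.0184) also started lower in EIF2A and did not pass the test against GFP at 1 h (adjusted p = 0.215 and 0.868). Of 17 MAP kinase feedback genes tested, Dusp1 and Dusp10 were the only 2 called, with a list median of -0.04, and of 26 cAMP and calcium targets Nr4a1 and Pcsk1 were the only 2 called, with a median of 0.13. Btg2, Trib1, Dusp10 and Pcsk1 were not called under each of the 3 scalings.

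Promoters of these genes are shown where they carry the palindromic cAMP response element TGACGTCA, here in capitals, with RefSeq sequence of GRCm38.p6 written along the gene's strand.
Dusp1 (chr17:26508582-26508641, minus strand): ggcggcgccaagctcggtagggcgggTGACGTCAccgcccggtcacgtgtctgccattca
Btg2 (chr1:134079288-134079347, minus strand): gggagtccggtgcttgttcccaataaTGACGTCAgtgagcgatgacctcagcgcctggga
Pcsk1 (chr13:75089753-75089812, plus strand): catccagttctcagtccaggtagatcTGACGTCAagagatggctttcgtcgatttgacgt
Srf, among the negative genes, holds 2 matches to the CArG box, the site bound by SRF itself, also in capitals.
Srf (chr17:46556200-46556259, minus strand): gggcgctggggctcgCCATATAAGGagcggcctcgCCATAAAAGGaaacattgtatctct
The cAMP response element was found in 12 of 225 positive genes with a promoter in the table (5.33%), 1 of 39 negative genes (2.56%) and 3.75% of 10280 tested genes. The CArG box was found in 6 positive genes (2.67%), 2 negative genes (5.13%) and 1.62% of tested genes, both strands read.

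Targets of the integrated stress response, mostly genes that ATF4 and its partners raise, gave 7 negative calls and 1 positive call among 44 tested, with a median interaction of -0.06. In each construct the list responded, with 20 members risen in EIF2A and 25 in GFP, and 4 fallen in each. Chac1, which degrades glutathione, had 192, 194 and 204 CPM in EIF2A at 1 h and 73.8, 74.4 and 83.3 CPM in EIF2A at 0 h. GFP had 162, 172 and 166 CPM at 1 h and 46.5, 45.8 and 47.5 CPM at 0 h. EIF2A was above GFP at both times without overlap, so its negative interaction of -0.49 ± 0.07 (adjusted p = 0.00261) came with a higher level, not a lower one. The increments were 119.8 ± 4.89 CPM in EIF2A and 120.3 ± 2.95 CPM in GFP (SE), which differ by less than their errors.

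Trib3, a pseudokinase that restrains ATF4 output, had 92.99, 97.2 and 94.6 CPM in EIF2A at 1 h and 47.8, 55.5 and 51.9 CPM in EIF2A at 0 h. GFP had 58.1, 57.6 and 53.2 CPM at 1 h and 22.6, 23.3 and 22.5 CPM at 0 h. Its level in EIF2A before thapsigargin was close to that of GFP at 1 h, and the log2 responses were 0.88 ± 0.06 in EIF2A and 1.30 ± 0.06 in GFP (interaction -0.42 ± 0.08, adjusted p = 0.0103). The CPM increment was larger in EIF2A, 43.2 ± 2.54 against 33.5 ± 1.57 in GFP. Herpud1, an ER membrane protein of ER-associated degradation, differed from these genes in level: 206, 212 and 201 CPM in EIF2A at 1 h and 122, 130 and 121 CPM in EIF2A at 0 h. GFP had 286, 292 and 277 CPM at 1 h and 138, 142 and 137 CPM at 0 h. It was lower in EIF2A at both times, and it also rose less (interaction -0.31 ± 0.07, adjusted p = 0.0161).

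Slc1a4, a carrier of serine and alanine, had 44.8, 43.9 and 43.2 CPM in EIF2A at 1 h and 44.6, 43.2 and 45.8 CPM in EIF2A at 0 h. GFP had 51.7, 52.3 and 48.8 CPM at 1 h and 35.9, 35.02 and 39.5 CPM at 0 h. All EIF2A libraries lay between the GFP groups and overlapped between times, with an interaction of -0.49 ± 0.08 (adjusted p = 0.00392). Iars, the isoleucyl-tRNA synthetase, is outside the stress response list and was the only negative call among 20 tRNA synthetases. It rose to 95.2 ± 0.96 CPM in EIF2A at 1 h, against 85.2 ± 2.23 CPM in EIF2A at 0 h, and to 112 ± 2.53 CPM in GFP at 1 h, against 80.1 ± 0.60 CPM in GFP at 0 h (SD, n = 3 each; interaction -0.33 ± 0.06, adjusted p = 0.00812). Chac1, Trib3, Slc1a4 and Iars were called in all 12 leave-outs and Herpud1 in 8. Mthfd2, a mitochondrial folate enzyme (-0.27 ± 0.06, adjusted p = 0.0235), the arginine carrier Slc7a1 (-0.31 ± 0.08, adjusted p = 0.0352) and Ndrg1 (-0.25 ± 0.06, adjusted p = 0.0387) completed the 7 negative calls of the stress response list with Chac1, Trib3, Slc1a4 and Herpud1, and were called in 6, 3 and 5 leave-outs. These 3 were named after their values were seen.

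Slc3a2, the heavy chain shared by several amino acid carriers, went the other way. It had 279, 276 and 288 CPM in EIF2A at 1 h and 123, 124 and 124 CPM in EIF2A at 0 h. GFP had 301, 303 and 283 CPM at 1 h and 178, 184 and 184 CPM at 0 h. The constructs overlapped at 1 h and not at 0 h, and the interaction was 0.48 ± 0.06 (adjusted p = 0.000579), called in all 12 leave-outs. The transcription factors of this response were not called in the fit with TMM scaling alone. With a GC trend removed from each library, and with length and GC trends removed, Atf4, Ddit3 and Atf3 were each called. Ddit3 was also called with a length trend removed. The stress response list had 15 negative calls and 1 positive call with the GC trend removed, and the same with both removed. Atf4 averaged 854 ± 28.9 CPM in EIF2A at 1 h and 612 ± 20.9 CPM in EIF2A at 0 h, against 853 ± 43.1 CPM in GFP at 1 h and 534 ± 2.71 CPM in GFP at 0 h (SD, n = 3 each), an interaction of -0.20 ± 0.07 (adjusted p = 0.152). For Ddit3, which encodes CHOP, it was -0.25 ± 0.09 (adjusted p = 0.150) and for Atf3 -0.32 ± 0.11 (adjusted p = 0.154), with both genes higher in EIF2A at both times.

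**Figure D3:**
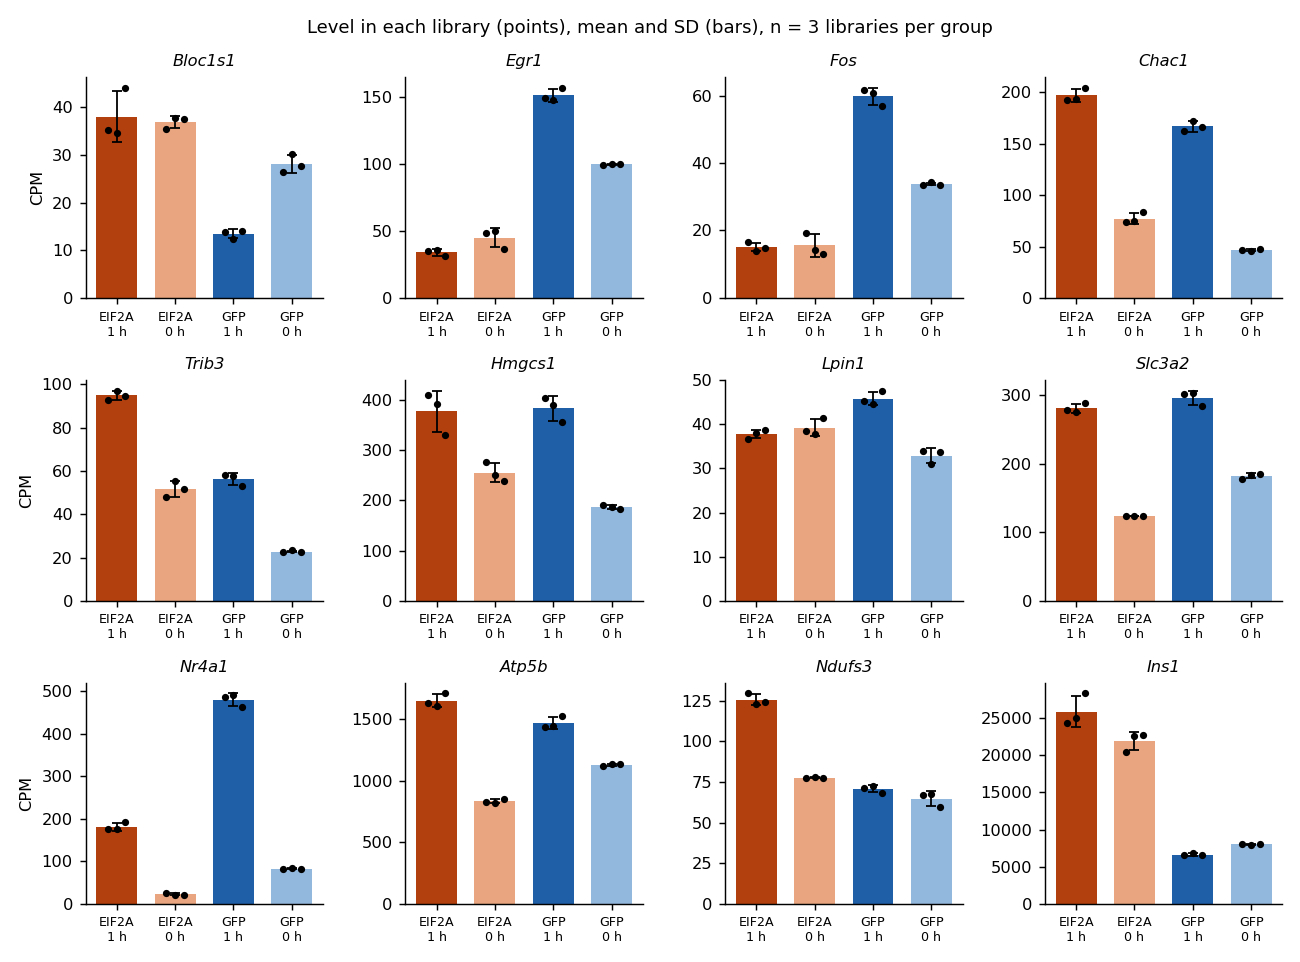
Level in CPM (vertical axes, starting at 0) of 12 genes whose response differed, in EIF2A at 1 h, EIF2A at 0 h, GFP at 1 h and GFP at 0 h, from left to right. Points are single libraries, bars the mean and whiskers the SD of 3 libraries, and Chac1 and Trib3 show a smaller fold in EIF2A at a higher level while Egr1 and Fos show a low level in EIF2A at both times.

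Promoters of the negative genes are shown where they hold the C/EBP-ATF response element TGATGNAA (N any base), to which ATF4 dimers bind. In all 5 genes it lies on the opposite strand, so the capitals read as its reverse complement.
Chac1 (chr2:119351023-119351082, plus strand): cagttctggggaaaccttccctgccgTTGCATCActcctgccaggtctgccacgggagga
Herpud1 (chr8:94386291-94386350, plus strand): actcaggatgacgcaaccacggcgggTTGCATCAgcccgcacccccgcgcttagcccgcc
Trib3 (chr2:152344028-152344057, minus strand): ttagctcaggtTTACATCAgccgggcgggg
Slc1a4 (chr11:20332699-20332728, minus strand): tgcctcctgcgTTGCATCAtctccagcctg
Iars (chr13:49682126-49682155, plus strand): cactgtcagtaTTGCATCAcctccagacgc
The element was found in these 5 of 39 negative genes with a promoter in the table (12.8%), in 1 of 225 positive genes (0.444%) and in 270 of 10280 tested genes (2.63%), both strands read. All 5 negative genes rose in GFP, where a match is a description of these letters and not of binding.

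Genes of cholesterol and fatty acid synthesis, which SREBP factors of the ER membrane control, gave 4 negative calls, among them Hmgcs1 and Fasn, and 1 positive call (Fdps) among 34 tested, with a median of -0.10. Hmgcs1, an early enzyme of cholesterol synthesis, averaged 378 ± 41.2 CPM in EIF2A at 1 h and 256 ± 19.6 CPM in EIF2A at 0 h, against 383 ± 24.9 CPM in GFP at 1 h and 187 ± 3.69 CPM in GFP at 0 h (SD, n = 3 each). The constructs overlapped at 1 h, and the log2 responses were 0.56 ± 0.07 in EIF2A and 1.04 ± 0.07 in GFP (interaction -0.47 ± 0.10, adjusted p = 0.015). Its promoter holds the sterol regulatory element TCACCCCAC, in capitals, which 2 of 39 negative genes (5.13%), 0 of 225 positive genes and 0.691% of tested genes share.
Hmgcs1 (chr13:119690188-119690247, plus strand): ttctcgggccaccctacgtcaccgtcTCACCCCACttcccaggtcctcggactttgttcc
Fdps, a later enzyme of the pathway that makes farnesyl diphosphate, rose more in EIF2A (0.30 ± 0.07, adjusted p = 0.0184) and was higher in EIF2A at both times. Fatty acid synthase Fasn had an interaction of -0.39 ± 0.09 (adjusted p = 0.0184), with a rise in GFP (0.26 ± 0.06, adjusted p = 0.00173) and a change of -0.13 ± 0.06 in EIF2A (adjusted p = 0.0849). Lpin1, a phosphatidate phosphatase outside that list, was among the 12 lowest at -0.53 ± 0.09 (adjusted p = 0.00322). Its level was 37.8 ± 1.01 CPM in EIF2A at 1 h and 39.2 ± 1.91 CPM in EIF2A at 0 h, against 45.8 ± 1.58 CPM in GFP at 1 h and 32.8 ± 1.66 CPM in GFP at 0 h. Fdps and Fasn were named after their values were seen.

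Among the other members of the 12 lowest, Fzd6, a Wnt receptor, had 6.15, 6.78 and 6.84 CPM in EIF2A at 1 h and 11.1, 11.5 and 9.04 CPM in EIF2A at 0 h. GFP had 9.41, 11.4 and 10.7 CPM at 1 h and 8.71, 9.06 and 9.57 CPM at 0 h. It fell in EIF2A (-0.69, adjusted p = 0.000103), its change in GFP was 0.21 (adjusted p = 0.0839), and the difference was -0.90 ± 0.15 (adjusted p = 0.004). Bhlhe40, a transcriptional repressor of the clock, was at 8.96 ± 0.29 CPM in EIF2A at 1 h and 13.1 ± 1.19 CPM in EIF2A at 0 h, against 41.8 ± 0.23 CPM in GFP at 1 h and 43.0 ± 1.75 CPM in GFP at 0 h (interaction -0.52 ± 0.11, adjusted p = 0.0128). Dpp10 (-0.53), Trp53inp1 (-0.58), Plat (-0.55), Tmem2 (-0.49) and Pcdhb14 (-0.69) were the remaining ones. Pcdhb14 belongs to a cluster of close paralogs, so its reads may be split among them. Atp2a2, which encodes the SERCA2 pump that thapsigargin blocks and was looked up after values were seen, had 1717 ± 37.5 CPM in EIF2A at 1 h and 2028 ± 59.1 CPM in EIF2A at 0 h, against 1988 ± 86.1 CPM in GFP at 1 h and 1959 ± 4.73 CPM in GFP at 0 h (interaction -0.26 ± 0.07, adjusted p = 0.0407, in 4 of 12 leave-outs).

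Among positive genes, nuclear genes of oxidative phosphorylation were the most frequent listed group: 23 of 68 tested had a positive interaction and none a negative one at this threshold (45 positive and 1 negative at an unadjusted p under 0.05), with a median of 0.25. The list's median response was +0.02 in EIF2A and -0.22 in GFP, and its median level over GFP was +0.25 at 0 h and +0.50 at 1 h. Under DESeq2 size factors and under library totals alone 16 were called, and the median was 0.22 and 0.18. With a length trend removed from each library 14 were called and the median was 0.15. With a GC trend removed 30 were called (median 0.22). With length and GC trends removed 20 were positive and 1 negative (median 0.16). By complex, 15 of 33 genes of complex I were positive (median 0.32), 0 of 4 of complex II (0.03), 2 of 9 of complex III (0.11), 1 of 11 of complex IV (0.13) and 5 of 11 of complex V (0.25). With the length trend removed, 9 of complex I were called, with the GC trend removed 18, and with both removed 13. The grouping by complex was made after values were seen.

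Atp5b, the catalytic β subunit of ATP synthase, had 1630, 1610 and 1710 CPM in EIF2A at 1 h and 829, 822 and 855 CPM in EIF2A at 0 h. GFP had 1439, 1444 and 1526 CPM at 1 h and 1120, 1133 and 1135 CPM at 0 h. It was lower in EIF2A at 0 h and higher at 1 h, each time without overlap, and its interaction was 0.60 ± 0.06 (adjusted p = 0.000181). Ndufs3, a core subunit of complex I, had 130, 123 and 125 CPM in EIF2A at 1 h and 77.6, 77.9 and 77.2 CPM in EIF2A at 0 h. GFP had 71.2, 72.6 and 68.4 CPM at 1 h and 66.9, 67.8 and 59.7 CPM at 0 h. EIF2A at 1 h stood apart above all other groups (interaction 0.57 ± 0.07, adjusted p = 0.000528). Ndufa9, an accessory subunit, rose in EIF2A (0.66 ± 0.05, adjusted p = 9.62e-09), with a change of 0.06 ± 0.05 in GFP (adjusted p = 0.332) and an interaction of 0.60 ± 0.07 (adjusted p = 0.000255). These 3 genes, like Ndufc2, Uqcrc2 and Atp5h, were called in all 12 leave-outs. Cox5b of complex IV showed the other form of a positive interaction, a rise in EIF2A (0.13 ± 0.05, adjusted p = 0.037) and a fall in GFP (-0.22 ± 0.05, adjusted p = 0.00106).

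Other large, highly expressed complexes leaned the same way, in lists added after values were seen: 13 of 37 proteasome subunits (median 0.20), 11 of 77 mitochondrial ribosomal proteins (0.16) and 3 of 8 subunits of the CCT chaperonin that folds actin and tubulin (0.22) were positive, and none negative. At an unadjusted p under 0.05 the counts were 22, 29 and 7 positive and 0 negative in each. The mitochondrial ribosome had 7 positive calls under DESeq2 size factors (median 0.14), 4 under library totals alone (0.10) and 4 with the length trend removed (0.09). In the same order the proteasome had 12, 9 and 10 (0.17, 0.13 and 0.16), and the CCT chaperonin 3 each time (0.19, 0.15 and 0.19). With a GC trend removed, positive calls were 13 for the mitochondrial ribosome, 15 for the proteasome and 5 for the CCT chaperonin. With length and GC trends removed they were 12, 13 and 4. Psmc5, an ATPase of the proteasome's regulatory particle, averaged 353 ± 17.2 CPM in EIF2A at 1 h and 219 ± 3.46 CPM in EIF2A at 0 h, against 238 ± 7.81 CPM in GFP at 1 h and 202 ± 4.25 CPM in GFP at 0 h (interaction 0.46 ± 0.07, adjusted p = 0.0019). Cct3 averaged 375 ± 10.96 CPM in EIF2A at 1 h and 265 ± 1.59 CPM in EIF2A at 0 h, against 288 ± 13.2 CPM in GFP at 1 h and 259 ± 1.43 CPM in GFP at 0 h (interaction 0.35 ± 0.06, adjusted p = 0.00666). Mrpl21 (0.45) and Mrps5 (0.43), of the large and small mitochondrial subunits, were each called in all 12 leave-outs.

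Cytosolic ribosomal proteins were positive in 75 of 78 by sign, against 54.9% of all genes tested, with a median of 0.18, but only Rpl8, Rps25 and Rpl36a were called. Under DESeq2 size factors 1 was called (median 0.16), and 0 under library totals alone (0.11) and with a length trend removed (0.10). With a GC trend removed 11 were positive, with length and GC trends removed 8, and none negative. Their reads can be shared with processed pseudogenes. Translation factors and the eIF2 system gave 6 positive calls of 53 and none negative (17 and 1 at an unadjusted p under 0.05), with a median of 0.12. Under library totals alone 3 were positive and 1 negative. Positive calls were 5 under DESeq2 size factors, 4 with a length trend removed, 10 with a GC trend removed and 11 with both removed. Eif2b4, a subunit of the exchange factor that phosphorylated eIF2 inhibits, had 110, 109 and 116 CPM in EIF2A at 1 h and 58.8, 63.3 and 63.4 CPM in EIF2A at 0 h. GFP had 74.1, 75.7 and 82.6 CPM at 1 h and 58.1, 54.9 and 55.8 CPM at 0 h. The rise was larger in EIF2A (interaction 0.40 ± 0.08, adjusted p = 0.00892). Eif3g (0.39) and Eif3c (0.33), subunits of the eIF3 scaffold, also rose more in EIF2A. The tRNA synthetases Qars (0.33) and Farsa (0.30) had positive interactions, opposite in sign to Iars, and were called in 1 and 4 of 12 leave-outs.

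**Figure D4:**
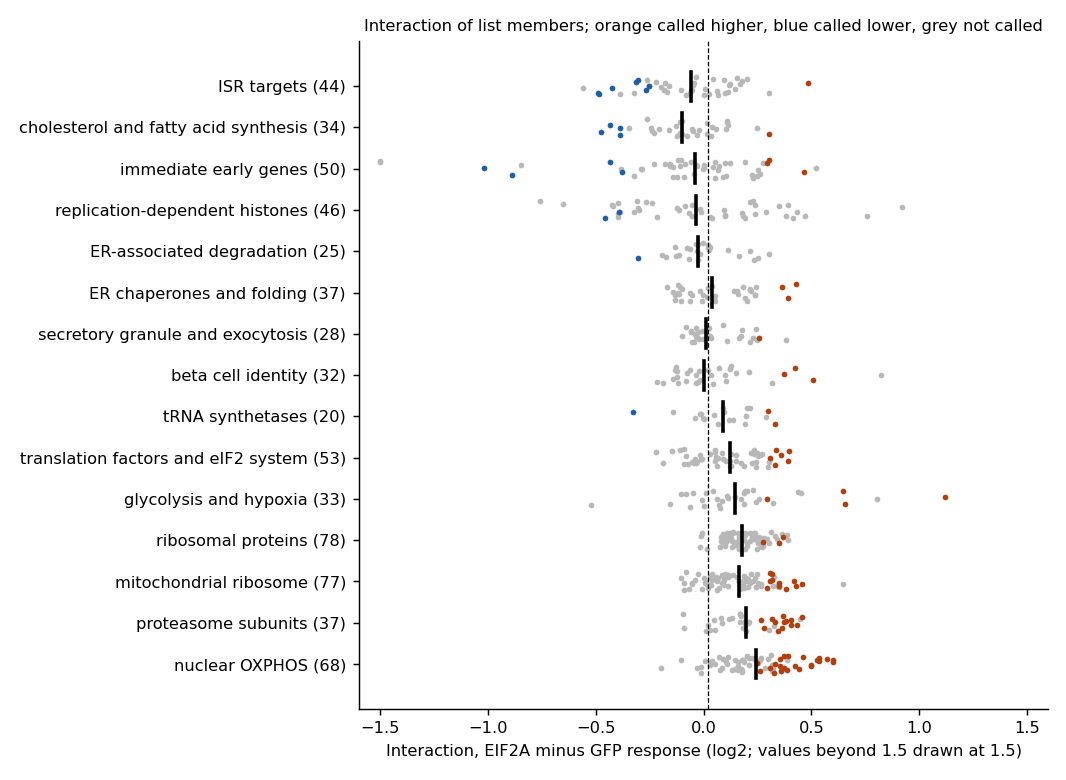
Interaction in log2 (horizontal axis, EIF2A response minus GFP response) of the tested members of 15 gene lists, with the number tested in parentheses. Each point is 1 gene, the thick bar is the list's median and the dashed line the median of all genes (0.02). Negative calls lie mainly among targets of the integrated stress response, cholesterol genes and immediate early genes, and the list with the highest median is nuclear oxidative phosphorylation.

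Glycolysis and hypoxia genes gave 4 positive calls of 33 (median 0.15). Pfkl, the liver form of phosphofructokinase, had 483, 501 and 616 CPM in EIF2A at 1 h and 321, 352 and 371 CPM in EIF2A at 0 h. GFP had 339, 338 and 393 CPM at 1 h and 357, 370 and 373 CPM at 0 h. EIF2A at 1 h was above all other libraries, with replicate 4 the highest (interaction 0.66 ± 0.11, adjusted p = 0.00534). Slc16a3, the lactate exporter MCT4, fell in both constructs and fell less in EIF2A, to 84.1, 83.2 and 103 CPM in EIF2A at 1 h, against 132, 145 and 163 CPM in EIF2A at 0 h, and to 57.8, 60.01 and 72.4 CPM in GFP at 1 h, against 158, 162 and 163 CPM in GFP at 0 h (interaction 0.65 ± 0.13, adjusted p = 0.0131). Pfkp (0.30 ± 0.07, adjusted p = 0.0243) was not called under each of the 3 scalings, nor was Eno1 (1.12 ± 0.28, adjusted p = 0.0351). Eno1 has only 1.10 to 4.60 CPM here and close copies elsewhere in the genome, so its value is uncertain.

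ER chaperones, the classical products of the unfolded protein response, had a median interaction of 0.04, against 0.02 over all genes tested. Of 37 tested, 3 were called, all positive, against 2.13% positive over all genes tested. At an unadjusted p under 0.05, 12 were positive and 1 negative. Hspa5, the main ER chaperone BiP, had 1363, 1328 and 1293 CPM in EIF2A at 1 h and 1095, 1078 and 969.7 CPM in EIF2A at 0 h. GFP had 1430, 1431 and 1461 CPM at 1 h and 1033, 995 and 1000 CPM at 0 h. It rose in both constructs, and the responses differed by -0.17 ± 0.07 (adjusted p = 0.23). The called members were Fkbp2, an ER prolyl isomerase (0.43 ± 0.07, adjusted p = 0.00347), Prdx4, an ER peroxidase (0.39 ± 0.08, adjusted p = 0.00812), and Sil1, the exchange factor of BiP (0.36 ± 0.09, adjusted p = 0.0402). Fkbp2 rose in EIF2A and fell in GFP, and the other 2 rose more in EIF2A. Sil1 was called in 3 of 12 leave-outs. Of 42 ER translocation genes, 3 were positive (Sec11c, Ssr4 and Spcs1, with a list median of 0.03), while under library totals alone 0 were positive and 1 negative. Positive calls were 1 under DESeq2 size factors and with a length trend removed, 3 with a GC trend removed and 2 with both removed. Herpud1 was the only call among 25 genes of ER-associated degradation (median -0.02).

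Both insulin genes had a positive interaction at levels that already differed widely. Ins1 had 24370, 24990 and 28340 CPM in EIF2A at 1 h and 20510, 22580 and 22770 CPM in EIF2A at 0 h. GFP had 6504, 6811 and 6549 CPM at 1 h and 7989, 7920 and 8046 CPM at 0 h. It rose in EIF2A (0.24 ± 0.06, adjusted p = 0.00229) and fell in GFP (-0.27 ± 0.06, adjusted p = 0.000859), an interaction of 0.51 ± 0.08 (adjusted p = 0.00322). Ins2 fell in GFP (-0.27 ± 0.05, adjusted p = 0.000571), and its change in EIF2A was 0.11 ± 0.05 (adjusted p = 0.112), an interaction of 0.37 ± 0.08 (adjusted p = 0.0128). Gipr, the receptor of the incretin GIP, was the third of 3 positive calls among 32 beta cell identity genes (median 0.00), but it was called in 1 of 12 leave-outs and under none of the other scalings and the length and GC corrections. Mafa (-0.04 ± 0.33, adjusted p = 0.976) and Pdx1 (0.12 ± 0.09, adjusted p = 0.575), transcription factors of beta cells, were not called, and Mafa varied from 170 to 306 CPM within EIF2A at 1 h. Txnip, which binds and inhibits thioredoxin, rose in both constructs by increments of 67.4 ± 2.54 CPM in EIF2A and 67.3 ± 2.46 CPM in GFP, and its interaction was -0.21 ± 0.07 (adjusted p = 0.148).

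Smaller groups held few calls in number, to be read beside 2.13% positive and 0.444% negative over all genes tested. NRF2 targets of redox defence gave 3 positive calls of 28 (Gstp1 0.53, Sod1 0.37 and Taldo1 0.35; list median -0.02), and heat shock genes 2 of 27 (Ahsa1 0.34 and Hspa8 0.27; -0.04). Among 46 replication-dependent histones, 2 were negative: Hist3h2a, induced by 1.57 ± 0.08 in EIF2A and 2.02 ± 0.08 in GFP, and Hist1h2bc, both from families of near-identical copies. S phase genes gave 2 positive calls of 31 (Mcm7 and Tyms, both 0.25), against 0 positive and 2 negative calls under both other scalings. With a GC trend removed 5 were positive and 2 negative, and with length and GC trends removed 4 and 3. Mitotic genes gave 1 positive call of 27 (Cdc20, 0.37). Pcsk1 was the only call among 28 genes of secretory granules and exocytosis (median 0.01), and Bax and Trib3 were the calls among 24 cell death genes (0.04). Bax was called in 0 of 12 leave-outs and under none of the other scalings and the length and GC corrections. Among p53 targets Btg2 and Bax were positive and Trp53inp1 negative, of 18. Ifi27 was the only one of 30 interferon genes called, and in 0 of 12 leave-outs. No NF-κB target of 17 was called by edgeR. At an unadjusted p under 0.05, 2 were positive and 1 negative, against 2180 of 13516 genes tested in both directions together. Of the 12 highest genes not yet described, Cd63, a tetraspanin, rose in EIF2A to 380 ± 19.5 CPM at 1 h, against 225 ± 6.30 CPM at 0 h, and in GFP to 376 ± 13.6 CPM at 1 h, against 341 ± 11.4 CPM at 0 h (SD, n = 3 each; interaction 0.61 ± 0.07, adjusted p = 0.000206). Xlr (0.66), Cacng7 (0.67), Egfl7 (0.65), Fads6 (0.64), Lmf1 (0.62) and Eapp (0.61) were the rest, and Xlr has close copies on the X chromosome that may share its reads. Cacng7, Egfl7 and Fads6 averaged 7.91, 9.21 and 7.55 CPM and were called in 2, 3 and 1 of 12 leave-outs. None of them was called under each of the 3 scalings. Lmf1 was called in 9 leave-outs and Eapp in all 12.

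Krt7, a keratin of duct cells, was the only marker of another cell type called (0.40 ± 0.09, adjusted p = 0.0184), among 6 tested of 16 acinar and duct markers. Krt7 itself averaged 568 ± 58.2 CPM in EIF2A at 1 h and 352 ± 17.7 CPM in EIF2A at 0 h (SD, n = 3 each). In GFP it averaged 526.5 ± 25.4 CPM at 1 h and 431 ± 4.79 CPM at 0 h. Its level was lower in EIF2A at 0 h (-0.29 ± 0.06, adjusted p = 0.000424) and did not pass the test at 1 h (0.11 ± 0.06, adjusted p = 0.117). The summed level of the 16 markers, without TMM scaling, was 559 to 640 CPM in EIF2A at 1 h and 372 to 395 CPM in EIF2A at 0 h. It was 1270 to 1310 CPM in GFP at 1 h and 1080 to 1090 CPM in GFP at 0 h, and the part of these markers in the results was not tested. Of 8 tested mesenchymal, endothelial and blood cell markers and 1 tested delta, PP and epsilon cell marker, none was called. The first of these lists summed to 29.7 to 36.9 CPM in EIF2A at 1 h and 38 to 51.8 CPM in EIF2A at 0 h, against 63.1 to 74.5 CPM in GFP at 1 h and 71.2 to 76.9 CPM in GFP at 0 h, and the other to at most 7 CPM in any group.

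Called genes also differed from the rest in length and base composition. Positive genes had a median exonic length of 2798 bases and a median GC content of 54.1%, and negative genes 5114 bases and 48.9%, against 4414 bases and 50.3% for all genes tested. With a length trend removed from each library, 162 of the 288 positive and 55 of the 60 negative genes were still called. With a GC trend removed, 272 and 60 were, and with both removed 241 and 60. Bloc1s1, Egr1, Fos, Chac1, Trib3, Hmgcs1, Lpin1, Slc3a2, Nr4a1, Atp5b and Ndufs3 kept their calls under each.

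At 3 h, scaled over all 24 libraries, Bloc1s1 stayed apart at 27.1, 27.1 and 34.9 CPM in EIF2A, against 9.55, 9.73 and 10.9 CPM in GFP. Fos had 9.38, 12.5 and 11.1 CPM in EIF2A and 56.7, 56.6 and 59.6 CPM in GFP, and Nr4a1 19.8, 24.1 and 26.5 CPM in EIF2A and 268, 272 and 295 CPM in GFP. Chac1 overlapped between the constructs, with 471, 475 and 567 CPM in EIF2A and 441, 453 and 498 CPM in GFP. Trib3 remained higher in EIF2A without overlap, at 318, 338 and 383 CPM against 223, 235 and 250 CPM in GFP.

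In the 4 libraries of replicate 1, as labelled, the interaction had the opposite sign for 201 of the 288 positive genes (69.8%) and 46 of the 60 negative genes (76.7%), against 56% of all genes tested. These shares rest on the construct labels that replicate 1 goes against: with its constructs exchanged every such sign would turn, so they are no test of the interaction. Bloc1s1 there had 18.3 CPM in EIF2A at 1 h and 26.5 CPM in EIF2A at 0 h, against 19.0 CPM in GFP at 1 h and 21.9 CPM in GFP at 0 h. Fos had 95.3 CPM in EIF2A at 1 h and 25.5 CPM in EIF2A at 0 h, against 25.5 CPM in GFP at 1 h and 10.0 CPM in GFP at 0 h. With these libraries added as labelled, no gene was called by edgeR in the interaction (59 at an unadjusted p under 0.05). Of the 12 libraries used, leaving out any but EIF2A at 1 h replicate 3 moved a count by over 1.5 times: the positive calls lay between 79, without EIF2A at 0 h replicate 3, and 254, and the negative calls between 20, without GFP at 0 h replicate 3, and 168, without EIF2A at 1 h replicate 4. Without replicate 2 of all groups 6 positive and 1 negative calls were left, and without replicate 3 none by edgeR (1267 at an unadjusted p under 0.05). In all 12 fits without a single library 68 positive and 16 negative genes were called. At the threshold itself, Kif12, Clta and Crot lay just inside (adjusted p = 0.048, 0.049 and 0.05, the last just under the limit) and Impa1, Fam107a and Trnau1ap just outside (0.0504 each).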

How the data were processed

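Polyadenylated RNA of MIN6 cells was sequenced with a stranded kit, per the labels. Bcl2fastq, STAR and the build mm10 are listed in the submitters' processing notes. Which program counted reads, with which strand setting and annotation, is not stated in these sources. The values used are the authors' raw counts, as deposited, and the lines for reads in no gene (10.9% to 17.9% in the libraries used) and ambiguous reads (0.518% to 0.592% over the series) stayed out of all totals. Columns were matched to samples by the names in the sample descriptions.

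The 4 group means of 12 libraries were fitted in R 4.3.3 with edgeR 4.0.16, after its default expression filter (minimum count 10, minimum total 15) and TMM scaling, by robust quasi-likelihood F tests with 8 residual degrees of freedom, Benjamini-Hochberg adjustment over 13516 genes and a threshold of 0.05. Log2 values carry standard errors (SE) of the fit. "Rose" and "fell" mean an adjusted p under 0.05. CPM are edgeR's, computed from TMM-scaled totals. A length or GC trend was removed as a loess offset (span 0.5), and 96.3% of genes had both values in GENCODE M21. Limma 3.58.1 and DESeq2 1.42.0 were alternatives. The fit was also run on simulated data with independent libraries and the same dispersion in all groups. The libraries here had uneven spread and correlated deviations, so the simulation is no test of the calls.

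The libraries, the comparison, the 28 gene lists and the tests were chosen with earlier results of these data known, and 9 further lists (IRE1 decay, proteasome, mitochondrial ribosome, CCT and the 5 complexes of oxidative phosphorylation) after the values were seen. Named genes are the 12 highest and 12 lowest called interactions with a mean of at least 5 CPM, the 3 called members of each list with the smallest p (mean of at least 1 CPM) or else its 2 most abundant members, and 15 fixed genes (Egr1, Eif2a, Npas4, Fos, Fosb, Mafa, Pdx1, Txnip, both insulin genes, Xbp1, Hspa5, Atf3, Atf4 and Ddit3). The other names were chosen after values were seen.

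The labels do not say that replicates are separate cultures, so p-values measure the spread between these libraries, which may be technical. Replicates of a group differed by 1.32 to 10.6 times counting variance (chi-square over degrees of freedom). The spread was uneven, at 1.32 to 1.96 in GFP at 0 h and 3.2 to 7.08 in EIF2A at 0 h. In EIF2A at 1 h it was 1.89 between replicates 2 and 3, and 10.6 and 8.41 between these and replicate 4. In GFP at 1 h the same values were 1.86, 4.88 and 4.17. Counts without molecular identifiers make counting error a lower limit. Same-numbered replicates were not fitted as pairs, as nothing in the labels pairs them. Deviations from the group mean nevertheless correlated between groups among replicates 2 and among replicates 4. Some genes of the lists are not reported here.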

Additional observations from a re-analysis of the deposited data

Results flagged for a closer look

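The response to thapsigargin differed between the constructs for 288 genes in the positive and 60 in the negative direction by the test of the difference itself. The highest log2 interactions among called genes that averaged 5 CPM or more were those of Bloc1s1 (1.11), Blvra (0.75), Pcyox1l (0.70), Cacng7 (0.67), Xlr (0.66), Pfkl (0.66), Egfl7 (0.65), Slc16a3 (0.65), Fads6 (0.64), Lmf1 (0.62), Cd63 (0.61) and Eapp (0.61). Of these, Cacng7, Egfl7 and Fads6 were called in only 2, 3 and 1 of 12 leave-outs. The lowest were those of Egr1 (-1.02), Fzd6 (-0.90), Fos (-0.89), Pcdhb14 (-0.69), Trp53inp1 (-0.58), Plat (-0.55), Lpin1 (-0.53), Dpp10 (-0.53), Bhlhe40 (-0.52), Slc1a4 (-0.49), Chac1 (-0.49) and Tmem2 (-0.49). Groups hold 3 libraries, so single outlying libraries were not looked for.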

How the results depend on the processing

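With 3 libraries a group, the counts of positive and negative calls (288 and 60) moved with most settings, while of 86 named called genes only Fos changed direction, and only with replicate 1 added. They were 187 and 71 with DESeq2 size factors, 132 and 127 with library totals, 317 and 141 with DESeq2, 585 and 172 with limma voom, 67 and 45 with the 3 h libraries in the fit, 165 and 75 with a length offset, and 0 and 0 with replicate 1 added. With that replicate, 1383 genes were called for the EIF2A response, 978 for the GFP response and 0 for EIF2A against GFP at 0 h and at 1 h. With the replicate number as a block they were 860 and 247, and with block and length offset 596 and 333. Nothing in the labels pairs samples by number, and the number was no block in the fit above. Deviations from the group mean nevertheless correlated between -0.063 and 0.523 for same-numbered libraries, over 0.1 in 12 of 18 pairs. Those 12 were all pairs of replicates 2 and of replicates 4, while pairs of replicates 3 lay between -0.063 and 0.08. The fit above thus takes no account of a spread shared by same-numbered libraries. Added after seeing the data, a GC offset gave 449 and 293, length and GC offsets 396 and 252, and leaving out both EIF2A replicates 4 gave 291 and 273. Leaving out 1 library or 1 replicate number gave 0 to 297 positive and 0 to 234 negative calls and 3645 to 6907 for the GFP response, which had 7360 without both EIF2A replicates 4. The share with a weaker response in EIF2A, 8.33%, was 13.2% with the GC offset, 11.7% with length and GC offsets, 12.2% with length offset and block, and 6.91% to 14.9% in leave-outs. The share with a level difference at 1 h, 87.9%, was 84.6% to 91.6% in them. Of those 86 genes, 68 were still called with DESeq2 size factors, 63 with library totals, 65 with a length offset and 42 with the 3 h libraries. Signs turned with replicate 1 added for Atf3 (0.14), Fos (0.05), Fosb (0.15) and Rbp4 (-0.08), with limma voom for Xbp1 (0.03), with the 3 h libraries (-0.00) and the GC offset (-0.03) for Rbp4, and with length, length and GC, and length with block for C1qa (-0.01, -0.06, -0.01), Gcg (-0.05, -0.02, -0.05) and Rbp4 (-0.06, -0.10, -0.07), and with library totals for Gcg (-0.02) and Rbp4 (-0.02). Over leave-outs, the fit without both EIF2A replicates 4 included, the ranges were -0.08 to 0.20 for C1qa, -0.44 to 0.30 for Cd68, -0.52 to 0.24 for Fosb, -0.02 to 0.08 for Gcg, -0.36 to 0.11 for Mafa, -0.02 to 0.15 for Pdx1, -0.31 to 0.17 for Rbp4 and -0.10 to 0.02 for Xbp1. Apart from Fos these genes were not called in the first place. The cause of these shifts was not tested.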
